A study of Mus musculus with 6 samples.

Results

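The Reg genes encode small secreted lectins of the C-type fold, and 6 of them (Reg1, Reg2, Reg3a, Reg3b, Reg3g and Reg4) were followed here across mouse stomach mucosa with and without the glycosyltransferase A4gnt. Members were taken by gene name on the array, which gave 6 genes with 1 probe each, of 31689 genes and unnamed transcripts on 39399 probes. RNA came from the lining of the glandular stomach, peeled off its muscle, and was hybridised to 6 one-colour Agilent arrays. Each array held the RNA of 1 mouse. The A4gnt-null group had 1 mouse at each of 5, 10 and 50 weeks of age, and the wild-type group had 1 mouse at each of the same ages. All 6 mice were of the C57BL/6J strain. A4gnt transfers α1,4-linked N-acetylglucosamine to the O-glycans of gland mucus, and the study's title asks what this mucin does against gastric cancer. How the allele was made is not given in the sources used here.

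Reg3b and Reg3g are antibacterial lectins of the gut lining: Reg3g binds and kills Gram-positive bacteria, and both genes are induced in epithelium by microbes and by interleukin 22 through STAT3. Reg1 was first described as a protein of regenerating pancreatic islets and of pancreatic juice, and in the stomach it is known as a gastrin-responsive growth factor. Reg2 and the related Reg3d are known mainly from pancreas, Reg4 from intestine and, in human patients, from gastric tumours.

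All members but Reg4 lie in 1 cluster on mouse chromosome 6, where the RefSeq annotation places Reg3b, Reg3d, Reg3a, Reg2, Reg1 and Reg3g in this order, with the pseudogene Gm52853 between Reg1 and Reg3g. On build mm9, the array's annotation puts the probe of Reg3b at 78323323 to 78323382, that of Reg3a at 78333635 to 78333694, that of Reg2 at 78357959 to 78358018, that of Reg1 at 78378527 to 78378586 and that of Reg3g at 78416420 to 78416479, all on chromosome 6. The 6 cluster probes, Reg3d included, span 93.16 kb. The Reg4 probe lies on chromosome 3, at 98037005 to 98040251, and covers 3247 bases of genome for its 60 bases of sequence. Which exon or UTR a probe falls in is not given in the sources used here. The 60-base probes of these 7 genes differ from each other: in the 21 pairs the longest run of identical bases was 4 to 7, and at most 18 to 26 of 60 bases matched.

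The promoters of the 4 genes on which the results turn are shown, since genes of 1 cluster took different courses. Each is the 250 bases before the RefSeq transcription start on GRCm38.p6, at chr6:78370635-78370884 for Reg3b (plus strand), chr6:78468875-78469124 for Reg3g (minus strand), chr6:78425733-78425982 for Reg1 (plus strand) and chr6:78404905-78405154 for Reg2 (plus strand). Capitals mark matches on either strand to 4 motifs. The STAT motif searched was TTCNNNGAA. The AP-1 motif, bound by Fos and Jun proteins, was TGANTCA. The motif of GATA factors was TGATAAG. The TATA box, TATAAA, was added after the sequences had been seen.
Reg3b: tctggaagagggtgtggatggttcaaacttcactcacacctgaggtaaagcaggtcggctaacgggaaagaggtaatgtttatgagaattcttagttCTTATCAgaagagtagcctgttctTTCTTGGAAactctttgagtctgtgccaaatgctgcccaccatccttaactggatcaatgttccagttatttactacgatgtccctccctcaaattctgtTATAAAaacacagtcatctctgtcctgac
Reg3g: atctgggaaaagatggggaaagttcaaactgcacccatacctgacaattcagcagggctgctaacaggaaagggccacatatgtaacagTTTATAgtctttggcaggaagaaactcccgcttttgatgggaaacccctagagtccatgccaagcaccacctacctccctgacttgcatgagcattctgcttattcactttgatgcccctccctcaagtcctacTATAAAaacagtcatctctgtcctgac
Reg1: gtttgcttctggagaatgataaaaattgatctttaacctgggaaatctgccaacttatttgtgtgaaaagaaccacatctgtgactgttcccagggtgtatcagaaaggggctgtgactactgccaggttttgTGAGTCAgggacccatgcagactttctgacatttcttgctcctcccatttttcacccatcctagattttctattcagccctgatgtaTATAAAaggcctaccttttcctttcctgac
Reg2: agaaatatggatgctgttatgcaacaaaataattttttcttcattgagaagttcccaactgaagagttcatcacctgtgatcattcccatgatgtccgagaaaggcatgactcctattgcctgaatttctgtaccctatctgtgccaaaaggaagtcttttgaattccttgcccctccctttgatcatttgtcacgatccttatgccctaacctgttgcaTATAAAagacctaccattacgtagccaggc
The STAT motif was found in the Reg3b promoter, as TTCTTGGAA starting at position -129, and not in the windows of Reg3g, Reg1 or Reg2. Reg3d, whose window is not shown, also holds it, as TTCCCAGAA starting at -238. The STAT motif is present in 7.02% of 32851 RefSeq mouse promoters of this length. Reg3b also holds the GATA motif, as CTTATCA on the minus strand at -153 (2.05% of promoters). Reg1 holds an AP-1 match, TGAGTCA, at -117 (6.75% of promoters). All 4 have a TATA box 27 to 30 bases before the start, a motif found anywhere in 12.4% of promoters, and Reg3g has another on the minus strand at -161. An E-box (CANNTG), left in lower case, occurs in each of the 4 and in 66.2% of all promoters, and no marked match overlaps another or an E-box. Reg3b and Reg3g share the 20 bases just before the start, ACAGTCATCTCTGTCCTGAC, while the longest run shared by any other pair of the 7 Reg promoters was 6 to 12 bases. Their whole windows were 70% identical over the aligned bases (173 of 247), inside the range of 53.9% to 71.9% of all pairs. The number of aligned bases differs by pair. The 173 identical bases were the most of any pair, while the 71.9% of Reg3a and Reg3g came from 143 of 199. A match describes letters only.

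Between 54.8% and 59.2% of 43020 spots per array were well above background. A4gnt itself had 2.299, 2.939 and 2.114 units of processed signal in null mucosa of 5, 10 and 50 weeks, not well above background, against 165.3, 325.4 and 264 units in wild-type mucosa. All 9 stomach markers checked, from acid pump subunits to surface and gland mucus genes, were well above background on all 6 arrays. All wild-type arrays were on 1 slide and in 1 scan, and all null arrays on another slide and in another scan, so slide, scan and genotype cannot be told apart. Nothing in the labels says how the 6 mice were housed or related, and the number of arrays limits the precision.

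Reg3g, the Gram-positive-killing lectin, was bright in null mucosa at every age. Its processed signal was 553.1, 1546.9 and 10300.3 units in null mucosa at 5, 10 and 50 weeks, against 36.69, 144.7 and 132.4 units in wild-type mucosa. The lowest null array thus lay above the highest wild-type array. After each array was scaled to its 75th percentile, null over wild type was 15.3-fold at 5 weeks, 11.7-fold at 10 weeks and 56.1-fold at 50 weeks. Each of these folds compares single mice, so no replicate checks it. Genes that were at least 4-fold higher in null mucosa made up 0.671%, 0.987% and 0.322% of the genes measured on both arrays at the 3 ages.

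Reg3b, the other antibacterial lectin, was higher in null mucosa at each age, by less at 5 weeks than later. Its signal was 830.2, 1719.4 and 6110.2 units in null mucosa at 5, 10 and 50 weeks, against 384, 30.35 and 45.37 units in wild-type mucosa. Null over wild type was 2.19-fold at 5 weeks, 61.9-fold at 10 weeks and 97-fold at 50 weeks. With normexp the log2 differences at 10 and 50 weeks were 4.37 and 5.50, against 5.95 and 6.60. Here too the null arrays all lay above the wild-type arrays, but the wild-type 5-week array came within 2.19-fold of its null partner. At 5 weeks, 3.54% of genes were at least 2-fold higher in null mucosa.

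Reg1, the growth factor of islet and gastric epithelium, was bright in both genotypes at 5 weeks and apart at the later ages. Its signal was 2859.1, 1596.7 and 15530.3 units in null mucosa at 5, 10 and 50 weeks, against 3507.5, 150.4 and 413 units in wild-type mucosa. Null over wild type was 11.6-fold at 10 weeks and 27.1-fold at 50 weeks, while at 5 weeks null was 1.21-fold lower. The groups overlapped, because the wild-type 5-week array was brighter than the null arrays of 5 and 10 weeks. A level in bulk mucosa cannot tell fewer cells of a type from less RNA per cell, for this and every other gene here.

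**Figure D1:**
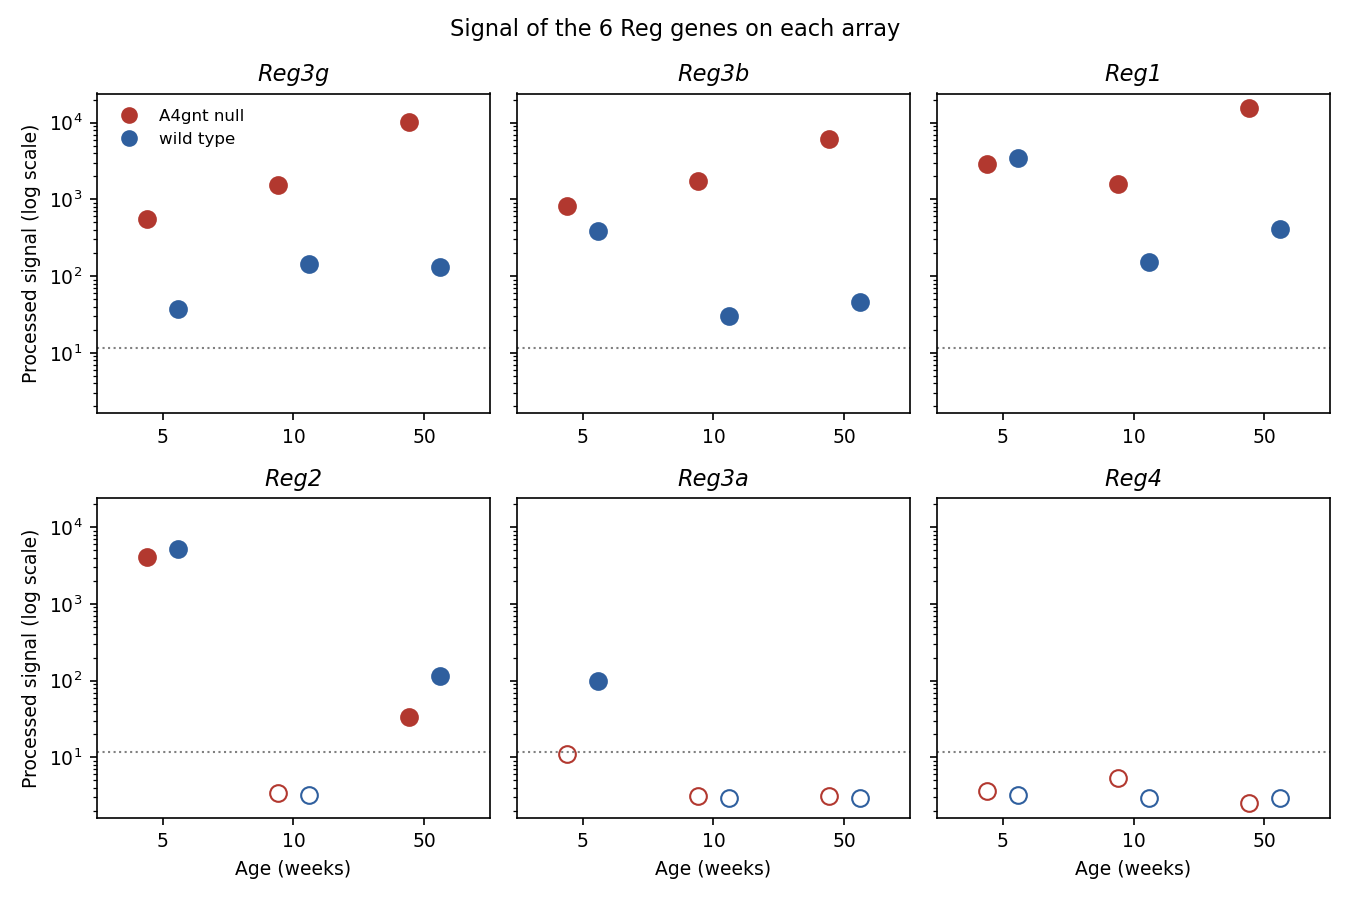
Processed signal of each Reg gene (log axis) against age for the A4gnt-null array (red, left of each pair) and the wild-type array (blue); each point is 1 mouse, open points were not well above background, and the dotted line is the highest of the arrays' lowest signals called above background. Reg3g and Reg3b are higher in null mucosa at each age, Reg1 at 10 and 50 weeks, while Reg2 is bright in both genotypes at 5 weeks and below background in both at 10.

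Reg2, a pancreatic member, was brightest at 5 weeks in both genotypes. Its signal was 4065.4 units in null and 5167.3 units in wild-type mucosa at 5 weeks, a 1.25-fold lower level in null. At 10 weeks it was not well above background in either genotype, with 3.398 units in null and 3.214 units in wild type. At 50 weeks it was 33.1 units in null and 116.4 units in wild-type mucosa, 4.88-fold lower in null, a size reached by 0.679% of genes (at least 4-fold lower). Where an array was below background, folds are bounds, taken against the lowest signal called above background on that array or the probe's own signal if higher. By that rule the 10-week level was at least 452-fold lower than the 5-week level in null mucosa and at least 674-fold lower in wild-type mucosa. The 50-week level was in turn at least 2.32-fold above the 10-week level in null and at least 13.5-fold above it in wild-type mucosa. Each of these steps compares single mice.

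Reg3a, the next gene of the cluster, was measured well above background on 1 array, that of the wild-type mouse of 5 weeks. Its signal was 10.9, 3.109 and 3.089 units in null mucosa at 5, 10 and 50 weeks, against 98.69, 2.923 and 2.937 units in wild-type mucosa. At 5 weeks it was at least 8.93-fold lower in null, where 0.348% of genes measured on both arrays were at least 4-fold lower, and at the other ages no fold can be given. Reg4 was not well above background on any array, at 3.606, 5.436 and 2.518 units in null mucosa of 5, 10 and 50 weeks and 3.195, 2.933 and 2.934 units in wild-type mucosa. These 2 genes were therefore not tested. Reg3d, which was not among the members but lies between Reg3b and Reg3a, had 195.2, 31.3 and 46.35 units in null mucosa and 390.8, 30.17 and 42.51 units in wild-type mucosa at 5, 10 and 50 weeks. It was brightest at 5 weeks in both genotypes, as Reg2 was.

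**Figure D2:**
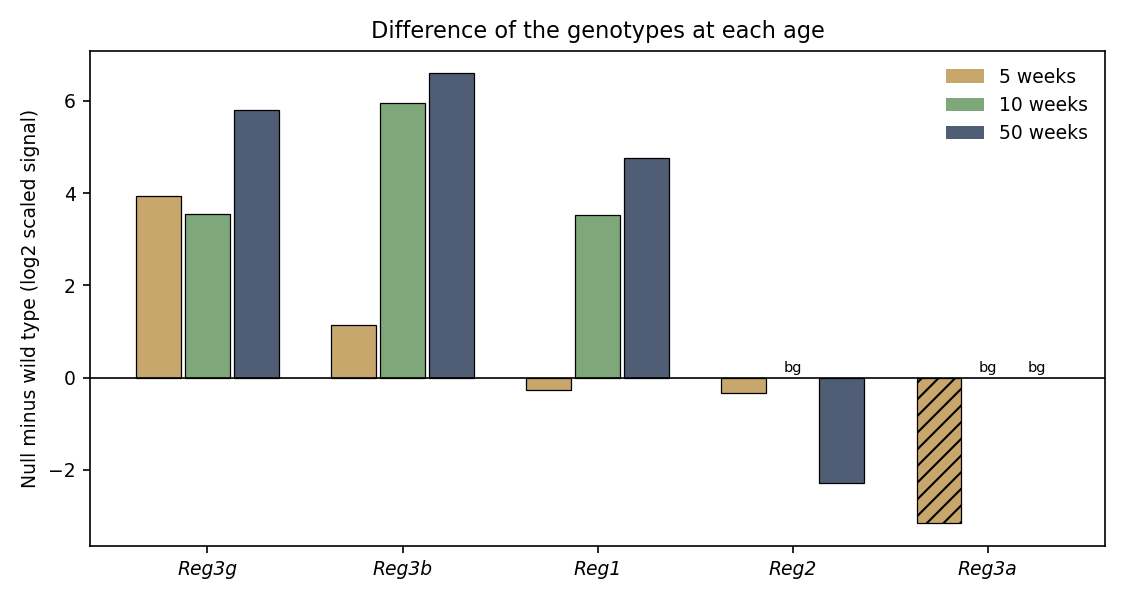
Difference of the log2 scaled signal, null minus wild type, at 5, 10 and 50 weeks for 5 Reg genes, with 1 mouse per genotype and age and so no error bar. The hatched bar is a bound, "bg" marks ages at which neither array was well above background, and Reg3b reaches 6.60 at 50 weeks against 1.13 at 5 weeks.

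To ask what held over all ages, the genotype difference was fitted with limma across 17858 genes that were well above background on at least 3 arrays, with age as a factor, so that the null and wild-type arrays of an age form a pair. Of the 6 members 4 were tested. Reg3b averaged 2.68 ± 1.13 in null and -1.89 ± 2.18 in wild-type mucosa on the log2 scaled signal (SD, n = 3 each), a difference of 4.56 with a standard error of 1.21. Reg3g averaged 2.68 ± 1.82 in null and -1.75 ± 0.92 in wild-type mucosa on the same scale (SD, n = 3 each), a difference of 4.43 with a standard error of 0.50. Reg1 averaged 3.68 ± 1.50 in null and 1.01 ± 2.55 in wild-type mucosa (SD, n = 3 each), a difference of 2.67 with a standard error of 1.06.

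None of these passed Benjamini-Hochberg adjustment in limma at 0.05. The adjusted p was 0.11 for Reg3g, which was higher in null at 3 of 3 ages, 0.167 for Reg3b, also at 3 of 3 ages, and 0.232 for Reg1. In the same limma fit 0% of genes passed in either direction, while at an unadjusted p under 0.05 there were 1996 genes higher in null (11.2%) and 2231 lower (12.5%). The unadjusted limma p was 0.00078 for Reg3g, 0.0185 for Reg3b and 0.0639 for Reg1. Null arrays all above wild-type arrays, as for Reg3g and Reg3b, was found for 12.6% of genes, and 26.3% were higher in null at all ages. Reg2 differed by -0.80 on the log2 scale with a standard error of 0.54 (limma adjusted p = 0.409), a fit that uses its below-background signals of 10 weeks. With background corrected by normexp and an offset of 50 units, Reg3g passed, at a difference of 3.65 (limma adjusted p = 0.0424). Under that setting 96 genes passed as higher and 91 as lower, of 17854 tested. Without the 5-week pair the difference was 6.28 for Reg3b and 4.15 for Reg1, and without the 50-week pair it was 3.54 for Reg3b and 1.63 for Reg1. Without the 10-week pair it was 3.87 for Reg3b and 2.24 for Reg1, and the limma adjusted p was above 0.05 in each case.

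**Figure D3:**
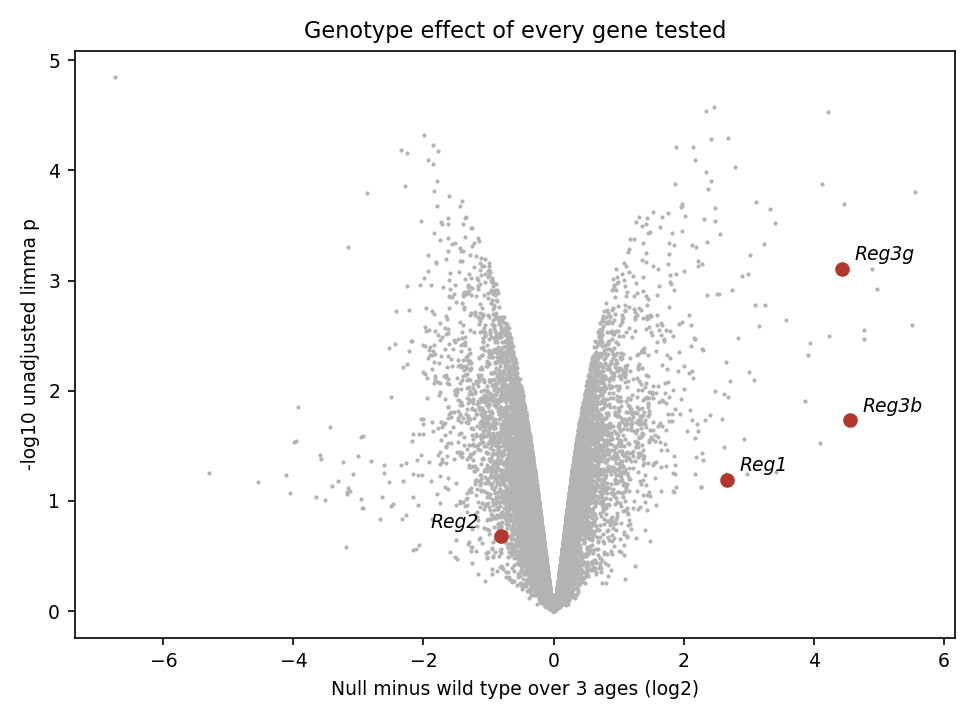
Genotype difference over the 3 ages (null minus wild type, log2) of 17858 genes against the -log10 unadjusted limma p, with 3 arrays per genotype; the 4 Reg genes tested are red. Reg3b and Reg3g lie far to the right, at 4.56 and 4.43, and Reg3g has the smaller p.

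The age courses of the genes differed within each genotype. In null mucosa the 50-week array exceeded the 5-week array 11.7-fold for Reg3g, 4.63-fold for Reg3b and 3.42-fold for Reg1. At least 4-fold higher at 50 than at 5 weeks was found for 0.232% of genes in null mucosa. In wild-type mucosa Reg3g was 3.20-fold higher at 50 than at 5 weeks, while Reg3b was 9.55-fold lower and Reg1 9.58-fold lower; 0.514% of genes were at least 4-fold lower there. At 50 weeks Reg3g was 5.42-fold above 10 weeks in null mucosa, where 0.104% of genes were at least 4-fold higher. In wild-type mucosa it was 1.13-fold higher at 50 than at 10 weeks, and that order turned round when arrays were scaled to spike-in probes. Reg1 in null mucosa was lowest at 10 weeks, 2.32-fold below the 5-week array. The steps are differences between single mice.

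In the limma fit of age over both genotypes, Reg2 did not pass for 10 against 5 weeks (adjusted p = 0.254). Both of its 10-week signals were below background, so the size of that difference is known only as the bounds above. At 50 weeks Reg2 differed by -6.63 from its 5-week level on the log2 scale, with a standard error of 0.66 and a limma adjusted p of 0.216. In the main fit of each of these contrasts limma called 2 genes higher (0.0112%) and none lower (0%) after adjustment. At an unadjusted p under 0.05, 1254 (7.02%) and 2085 (11.7%) were lower there. With normexp, both contrasts of Reg2 passed as lower (limma adjusted p = 0.00638 and 0.00887). Of 17854 genes under normexp, 2 were called higher and 2 lower for 10 against 5 weeks, and 9 higher and 4 lower for 50 against 5 weeks. For Reg3g, 50 weeks lay 2.61 above 5 weeks with a standard error of 0.61 (limma adjusted p = 0.221). A trend of the genotype difference with the logarithm of age was positive for Reg3g (0.64 per doubling, standard error 0.24), Reg3b (1.41, standard error 0.71) and Reg1 (1.34, standard error 0.98). The limma adjusted p of each trend was 1, with 0% of genes called in either direction, and 267 genes (1.5%) had a higher and 239 (1.34%) a lower trend at an unadjusted p under 0.05.

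Because Reg genes are also made by pancreas, which lies against the stomach, they were read beside pancreatic acinar genes. Cpa1, a pancreatic carboxypeptidase, had 1630.2, 2.456 and 16.38 units in null mucosa at 5, 10 and 50 weeks, against 4484.7, 2.281 and 1319.8 units in wild-type mucosa. Pnlip, the pancreatic lipase, had 1221.5, 4.074 and 13.44 units in null mucosa, against 3563.2, 4.577 and 595 units in wild-type mucosa. Cela3b, an elastase, had 1842.7, 9.103 and 16.27 units in null mucosa, against 4030.5, 4.289 and 932.4 units in wild-type mucosa. All 3 were thus high at 5 weeks in both genotypes, below background at 10 weeks in both, and, at 50 weeks, far lower in null than in wild type. Reg2 was likewise highest at 5 weeks and below background on the same 2 arrays.

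Across the whole list, 27 acinar genes were on the array. Of these, 27, 21 and 25 were well above background in null mucosa at 5, 10 and 50 weeks, and 27, 20 and 27 in wild-type mucosa. The 8 defining enzymes were all above background except at 10 weeks, when 5 of 8 were, in each genotype. The summed processed signal of the 27 genes, dominated by genes bright on every array, was 485971 to 617355 units in null and 670572 to 707159 units in wild-type mucosa. From 5 to 10 weeks, 15 of 27 were at least 4-fold lower in null and 13 of 27 in wild-type mucosa, against 0.437% and 0.19% of all genes. Over the 3 ages their median genotype difference was -1.63 on the log2 scale, against -0.02 for all genes tested. No acinar gene passed limma's adjustment, while 2 were higher and 10 lower at an unadjusted p under 0.05, against 11.2% and 12.5% of all genes.

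At 10 weeks, when Cpa1, Pnlip and Cela3b were below background in both genotypes, Reg3b was 61.9-fold, Reg3g 11.7-fold and Reg1 11.6-fold higher in null. At 50 weeks Cpa1 was 112-fold, Cela3b 79.6-fold and Pnlip 61.4-fold lower in null, while these 3 Reg genes were higher. These enzymes are among the extremes of the acinar list, whose median at 50 weeks was -2.84 on the log2 scale: Clps was 1.40-fold lower, and Cela1 (1.35-fold), Klk1 (1.51-fold), Ctrc (1.07-fold) and Gp2 (1.15-fold) were higher in null. At 5 weeks all 27 acinar genes were above background, and the wild-type arrays had their highest Reg1, Reg2, Reg3a, Reg3b and Reg3d levels at that age. The part of pancreatic RNA in those 5-week levels was not tested. Of the islet genes, Ins2 had 258.8, 199.7 and 142.6 units in null mucosa at 5, 10 and 50 weeks and 109.1, 98.28 and 74.8 units in wild-type mucosa, while Iapp was below background on all arrays. Of 7 islet genes 3 were tested, and none passed limma's adjustment. At an unadjusted limma p under 0.05, 2 were higher and 0 lower in null (all genes 11.2% and 12.5%). The fitted differences were 0.959 for Ins2, 1.395 for Pdx1 and -0.145 for Gcg, with standard errors of 0.206, 0.247 and 0.139.

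**Figure D4:**
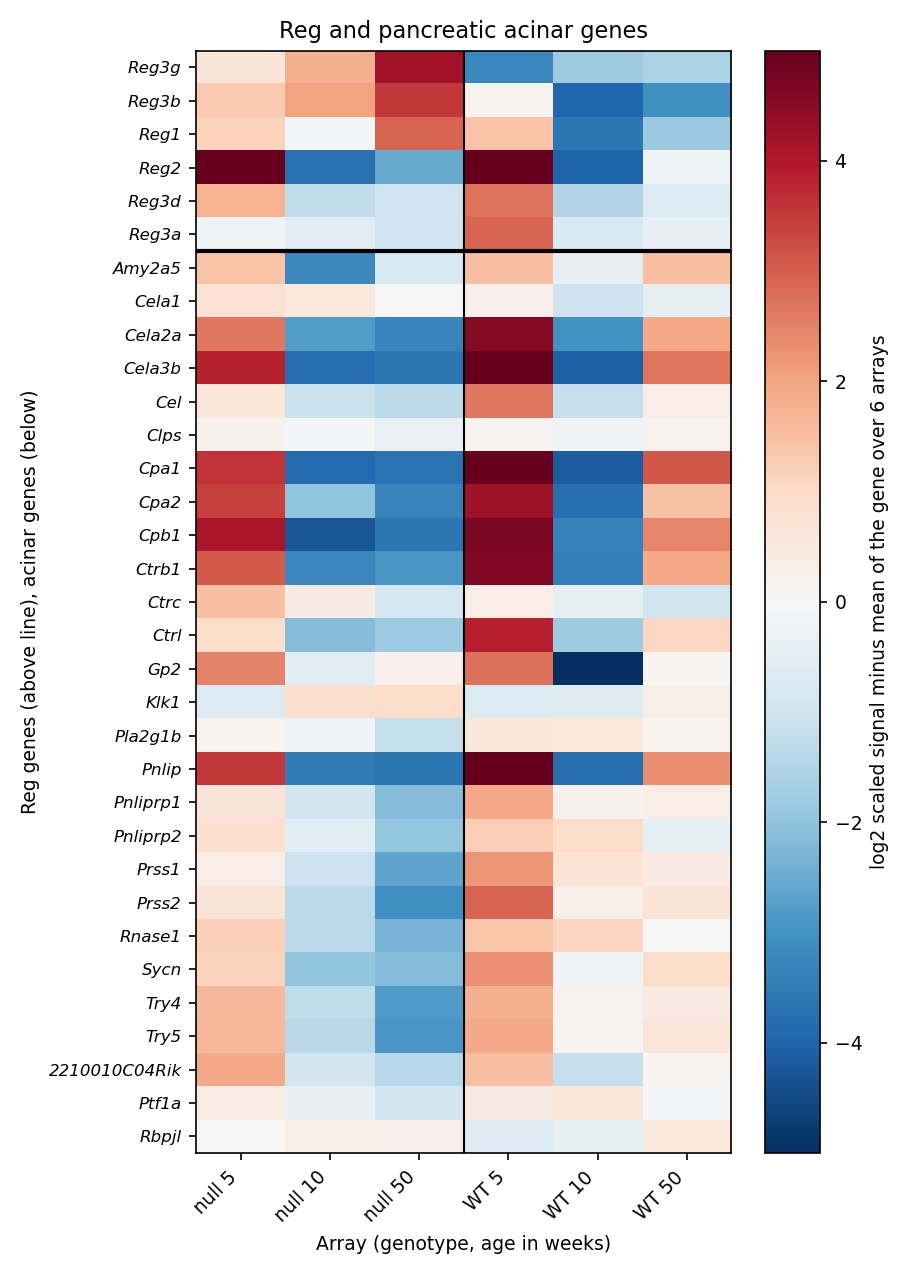
Log2 scaled signal of 5 Reg members and Reg3d (above the line) and of the 27 acinar genes (below it) on the null arrays (left) and wild-type arrays (right), each minus the gene's mean over the 6 arrays, with dim signals set to the array's background floor; the colour scale is clipped at 5. Reg2 and many acinar genes are high on both 5-week arrays, while Reg3g and Reg3b are highest on the null 50-week array.

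The signals known to induce Reg3 genes were then set beside them. Il22 was not well above background on any array, and its receptor chain Il22ra1 was dim, at 14.31, 32.92 and 58.04 units in null mucosa and 12.42, 14.12 and 19.64 units in wild-type mucosa. Il6 had 31.58 and 17.46 units in null mucosa of 10 and 50 weeks and was not well above background on the other 4 arrays. Il11, a gp130 cytokine that signals through STAT3, had 226.9, 430.1 and 816.1 units in null mucosa at 5, 10 and 50 weeks, against 25.38, 169.8 and 28.4 units in wild-type mucosa. The null arrays of Il11 thus lay above all wild-type arrays, as for Reg3g, with a difference of 3.01 and a standard error of 0.60 (limma adjusted p = 0.143). Stat3 itself was bright and close between genotypes (difference 0.02, standard error 0.13). Socs3, a feedback target of STAT3, differed by 0.93 with a standard error of 0.29 (limma adjusted p = 0.185).

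Of the interleukin 22, interleukin 6 and STAT3 list, 18 of 27 genes were tested. None passed limma's adjustment, 7 were higher and 3 lower at an unadjusted p under 0.05, against 11.2% and 12.5% of all genes, and the median difference was 0.08 on the log2 scale. The 3 lower are near the share over all genes. Besides Il11, the members with the largest differences were Il1b, which was 7.79-fold, 2.08-fold and at least 15.7-fold higher in null at 5, 10 and 50 weeks, the oncostatin M receptor Osmr (1.53) and the leukaemia inhibitory factor receptor Lifr (-0.95). Among genes known to respond to STAT3 in epithelium, 17 of 19 on the array were tested. None passed the adjustment, 7 were higher and 2 lower at an unadjusted p (all genes 11.2% and 12.5%), with a median of 0.31. The serum amyloid Saa3 had 261.5, 2073.8 and 1301.7 units in null mucosa at 5, 10 and 50 weeks, against 187, 40.55 and 14.64 units in wild-type mucosa. Like Reg3b, it was nearer between genotypes at 5 weeks than later. Lrg1, a secreted leucine-rich glycoprotein, differed by 3.23 with a standard error of 0.32 (limma adjusted p = 0.102). The fibrinogen chains Fgb and Fgg had the largest fitted differences in the other direction, with 964.3 and 647.9 units on the wild-type 10-week array and 46.2 units at most on any other array. Both were below background in null mucosa of 10 and 50 weeks, and at 10 weeks Fgb was at least 76-fold and Fgg at least 51-fold lower in null.

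Other antimicrobial genes of epithelium were counted in the same way, in lists that overlap. Socs3 counts as higher in both STAT3 lists, and Lcn2, S100a8 and S100a9 count as higher in the STAT3-responsive list and in this one. Of 21 antimicrobial genes tested of 25, none passed limma's adjustment. At an unadjusted limma p under 0.05, 9 were higher and 2 lower in null (all genes 11.2% and 12.5%), and the median difference was 0.71. The largest fitted differences were in the neutrophil chemokines Cxcl5 and Cxcl1, in S100a8 (2.30), a calprotectin subunit, and in lactoferrin, Ltf. Cxcl5 was below background on all 3 wild-type arrays and was tested only because its null arrays were bright, so it was at least 1.31-fold, 12.8-fold and 14.3-fold higher in null at 5, 10 and 50 weeks. Cxcl1 was below background in wild-type mucosa of 5 and 50 weeks, and was at least 6.41-fold, 4.24-fold as measured and at least 12.6-fold higher in null at the 3 ages. Ltf had 18.98, 78.39 and 2590.9 units in null mucosa at 5, 10 and 50 weeks, against 6.032, 71.46 and 64.34 units in wild-type mucosa. The wild-type 5-week signal of Ltf was below background. Intestinal epithelium genes had 6 higher and 3 lower of 17 tested at an unadjusted p (all genes 11.2% and 12.5%), none past the adjustment, and a median of 0.65. Their largest fitted differences were in the intestinal transcription factor Cdx2 and in Alpi (2.27), Fabp1 (-1.58) and Apoa4 (-1.55). Cdx2 was below background in both genotypes at 5 weeks, at least 9.67-fold higher in null at 10 weeks and 1.87-fold higher at 50 weeks.

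Markers of the stomach's own cells are given beside the Reg genes, and their part in the Reg differences was not tested. Of 10 parietal genes 8 were lower in null at an unadjusted limma p under 0.05 and none higher (all genes 12.5% lower and 11.2% higher, for these lists and the next), with a median of -1.07. Of 7 chief cell genes 4 were lower and 1 higher, with a median of -0.85. Of 13 endocrine genes 5 were lower and none higher, and Gast, whose hormone is known to induce Reg1, had 5262.9, 2816.6 and 400 units in null mucosa at 5, 10 and 50 weeks, against 1571.4, 7039.6 and 9358.7 units in wild-type mucosa. Each of these signals is from 1 mouse, and the relation of Gast to Reg1 was not tested. All 5 gland mucous genes were higher (median 1.76), and of 5 surface mucous genes 1 was lower (median -0.14). Extl3, a proposed receptor of Reg proteins, had 945.8, 1046.0 and 1327.7 units in null mucosa and 1229.5, 1582.9 and 1055.3 units in wild-type mucosa, a difference of -0.32 with a standard error of 0.13 (limma adjusted p = 0.228). Of 12 genes of lymphoid cells that make interleukin 22, 7 were below background on all arrays and 5 were tested, none of which passed limma's adjustment.

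The genes most like each Reg gene were ranked by Pearson's r of the log2 scaled signal over the 6 arrays, among genes that ranged over at least 2 log2 units. The arrays share genotype and age groups, so r describes the courses and carries no p. Reg3g was most like the claudin Cldn7 (r = 0.98), Ceacam2, Il18r1, Prrg4 and Dmbt1, a mucosal scavenger protein. Dmbt1 had 25183.8, 47322.1 and 158692.8 units in null mucosa and 7447.7, 20522.0 and 23737.3 units in wild-type mucosa. Reg3b was most like LOC100045300 (r = 0.94), Zfp618, the chemokine Ccl17, Saa3 and Rnf183, and Reg1 was most like Reg3b (r = 0.91), Zfp618, Ccl17, LOC100045300 and Kcnu1. For r, signals under an array's lowest signal called above background were set to that floor. Rnf183 was under it on all wild-type arrays (3.435, 3.171 and 3.18 units) and was a candidate only because its null arrays were bright. LOC100045300 was under it in wild-type mucosa of 50 weeks (6.343 units), and Ccl17 was near it in wild-type mucosa. Reg2 was most like Serpini2 (r = 0.98), Reg3d, 2210010C04Rik, Gm10334 and Gm5771. Serpini2 and 2210010C04Rik were under the floor at 10 weeks in both genotypes and at 50 weeks in null mucosa. No gene of these lists was shared by Reg3g and another member, while Reg1 and Reg3b shared Zfp618, Ccl17 and LOC100045300. Each list holds 5 of 1352 candidates, so a lack of shared genes says little about how alike 2 courses are. Reg3g itself had an r of 0.76 with Reg3b, 0.54 with Reg1 and -0.41 with Reg2.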

How the data were processed

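Mucosa of 6 mice was hybridised to 6 one-colour arrays, after column purification of RNA and Cy3 labelling per the labels' protocols. Per the file headers, the intensity of each spot was read and corrected for background by Agilent's Feature Extraction, version 10.7.1.1. A log2 table that the authors deposited was equal within 0.001 to the log2 processed signal plus 1 constant per array (-7.88 to -8.54) for 100% of probes; it served as an alternative, and what set the constants and centring is unknown.

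Processed signals were put on the log2 scale and each array's 75th percentile was subtracted, which removes differences in overall brightness. Control spots and 98 to 144 flagged spots per array were left out; 0 were saturated. The lowest signal called above background was 10.1 to 11.6 units. Of 39429 probes 30 were left out because all spots were flagged. Probes took RefSeq names by accession (26044), symbol (3194) or synonym (930), and 9231 kept the array's name; a gene's brightest probe was used. Fits used limma 3.58.1 in R 4.3.3, age as a factor, checked on simulated data. The residual degrees of freedom were 2, and limma added 2.11 borrowed from the variances of all genes. The p-values of the genotype and age fit measure the spread of the within-age differences between single mice, moderated by that borrowed part. In the trend fit the spread is around a line in the logarithm of age for each genotype. The pairing comes from the labelled age. Promoters are from RefSeq on GRCm38.p6, aligned with Biopython 1.88.

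All 6 members, up to 4 genes per list by size of difference, and the 5 genes most like each member were named; other genes of the acinar, islet, receptor and interleukin 22 lists were named by a fixed rule. Members, lists and tests were chosen with earlier results of these data known. A result of the lymphoid list is not reported here.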

Additional observations from a re-analysis of the deposited data

Results flagged for a closer look

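Reg1 was flagged because its genotype difference had opposite signs at different ages. Mixed signs were common: of 17858 genes tested, 4690 were higher and 4641 lower in null at all 3 ages, and the others were mixed. On the log2 scaled signal, null minus wild type was -0.27 at 5 weeks, 3.54 at 10 weeks and 4.76 at 50 weeks. Each value sets 1 mouse against 1 mouse, so the difference between single ages was not tested; the trend with the logarithm of age had a limma adjusted p of 1. Groups of 3 arrays were too small to look for arrays far from the others.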

How the results depend on the processing

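The genotype differences of Reg1, Reg2, Reg3b and Reg3g kept their sign under all 15 alternatives run (14 for Reg2, which has no value among genes above background on all 6 arrays). Part of this was fixed in advance, since each gene has 1 probe and each age has both genotypes. The filters, probe choices, variance settings and the fit without age returned the main differences, and only their p could change. Leaving out each age in turn gave 1.63 to 4.15 for Reg1, -1.31 to -0.06 for Reg2, 3.54 to 6.28 for Reg3b and 3.74 to 4.87 for Reg3g; without the 50-week pair Reg1 was lowest, and without the 5-week pair Reg1 and Reg3b were highest. The other alternatives gave 2.48 to 2.83, -0.82 to -0.47, 3.64 to 4.72 and 3.65 to 4.59 for the same genes. Over all alternatives the limma adjusted p ranged from 0.102 to 0.535 for Reg1, 0.0811 to 0.41 for Reg3b and 0.0424 to 0.311 for Reg3g. Reg3g passed under normexp alone (3.65), and so did Reg2 for 10 minus 5 weeks (-6.29, limma adjusted p = 0.00638) and 50 minus 5 weeks (-5.27, limma adjusted p = 0.00887); the cause was not tested. The 10-week signals of Reg2 were below background, so its fitted sizes for that age are no measure of the change. Normexp brought the 5-week difference of Reg3g to 2.62.

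The count of genes past limma's adjustment for genotype, 0 higher and 0 lower, became 96 and 91 with normexp, 28 and 13 with a variance trend and 0 and 1 with quantile normalization. With no replicate block, which ignores the pairing by age, it was 4 and 2, and no Reg gene changed its call. Without any 1 age both counts stayed at 0. Scaling to the median shifted the median difference of all genes to 0.13, against -0.02, and changed the split at an unadjusted p to 3933 higher and 1201 lower, against 1996 and 2231. Of 50 orders of the arrays (10 genes, 5 scalings), 46 were the same, and Reg3g, Reg3d and Cpb1 accounted for the other 4. Signals near 10 units limit what can be said of Reg3a, Reg4 and Reg2 at 10 weeks.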
